A study of Homo sapiens with 4 samples.

Results

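The long intergenic noncoding RNA genes that carry a LINC number as their symbol were examined in MDA-MB-231 Fluc breast cancer cells. They were taken as the rows of the deposited table whose symbol is LINC followed by digits only, which gave 110 of 13957 genes. The cells received either cordycepin at 50 μM or the vehicle DMSO, in both cases for 2 h, with 2 libraries in each group and 4 in all. The labels do not say whether the libraries of a group came from separate cultures. MDA-MB-231 is a mesenchymal-like, triple-negative breast cancer line, and all libraries came from the Fluc derivative, which carries a luciferase gene for bioluminescence imaging, so the groups represent a single cell line. Cordycepin is 3'-deoxyadenosine, an adenosine analogue that lacks the 3' hydroxyl group and is known to interfere with polyadenylation. Total RNA was depleted of ribosomal RNA and sequenced from stranded libraries as 75 bp paired-end reads. The table gives 1 mean level per gene over both groups, as the log2 of CPM (read counts scaled to the library total), and no value per library. The levels below are therefore those of a mixture of treated and control cells, without SD, and differences between cordycepin and DMSO are not described here. The depth of each library is unknown.

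The identity of the cells was checked with 13 marker genes. All 7 markers of the line were in the table, with mean log2 CPM from 8.58 for FOSL1 to 11.01 for AXL. Of 6 luminal or epithelial markers, the receptor genes ESR1 and PGR were not among its rows, whereas CDH1, EPCAM and GATA3 had mean log2 CPM of 3.68, 3.68 and 4.48. The sixth, the keratin gene KRT8, stood at 9.11 and so went against its place among the low markers. CDH1 lay at percentile 35.5 of the genes of the table, EPCAM at 35.6 and GATA3 at 48.3. GATA3 was thus near the middle and not low.

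Long noncoding RNAs are transcribed by RNA polymerase II and in most cases are capped, spliced and polyadenylated like mRNAs, but they are not known to encode a conserved protein. Genes that lie between protein-coding genes and have no better name receive a LINC number, whereas those named after a neighbour carry a suffix such as AS for antisense or DT for divergent transcript. Some act in cis on the gene beside them, some act in trans, some are hosts of microRNAs (miRNAs), and for many no role is known. They are typically less abundant and more restricted to particular cell types than mRNAs.

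Of the 110 LINC genes, 5 span at least 1 miRNA gene on their own strand in RefSeq (GRCh38.p14). LINC00472 (chromosome 6, 71343427 to 71420745, minus strand), the member with the highest mean log2 CPM (5.67), spans MIR30C2 and MIR30A. Their mature products are shown 5′ to 3′ because the 5p arms share a seed, bases 2 to 8 of a miRNA, which is given in capitals and which pairs with target mRNAs.
hsa-miR-30a-5p: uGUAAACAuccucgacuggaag
hsa-miR-30c-5p: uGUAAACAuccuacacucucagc
hsa-miR-30a-3p: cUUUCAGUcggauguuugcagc
hsa-miR-30c-2-3p: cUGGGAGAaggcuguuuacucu
The miR-30 family is expressed in many tissues. By the exons of GENCODE release 44, the MIR30A products lie in an intron of LINC00472, and those of MIR30C2 overlap an exon. The other hosts were LINC01505 (mean log2 CPM 3.20), LINC00960 (2.42), LINC01949 (1.29) and LINC01138 (1.15), which span MIR8081, MIR4273, MIR4280 and MIR5087. Their mature sequences share no seed with each other or with miR-30.
hsa-miR-8081: cUUGAGUCgugccuuucugaaug
hsa-miR-4273: gUGUUCUCugauggacag
hsa-miR-4280: gAGUGUAGuucugagcagagc
hsa-miR-5087: gGGUUUGUagcuuugcuggcaug
LINC01588 spans MIR6076, and LINC01138 also spans MIR6077, both on the opposite strand. The level of a host gene is not a level of its miRNA, and mature miRNAs were not measured in these libraries.

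All 110 gene IDs were found in GENCODE release 44. There, 100 are annotated as long noncoding RNA and 10 as transcribed pseudogenes. For 5 of the 10, release 44 holds a separate long noncoding RNA of the same symbol that overlaps it, and its exons were used here. In release 44 the symbol differs from the deposited one for 10 members. Of these, 5 are named there as divergent transcripts of a protein-coding gene and 2 as antisense RNAs. LINC01578 is CHASERR, known as a regulator in cis of CHD2, the chromatin remodeller gene beside it. LINC01184 is SLC12A2-DT, LINC00909 is ZNF407-AS1 and LINC01949 is MIR4280HG. RefSeq has other names for some further members, such as SNHG33 for LINC00888 and KMT2E-AS1 for LINC01004. Members were found on all autosomes and on X, with 17 on chromosome 1, 9 on chromosome 19 and 8 on X.

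The LINC genes were expressed at low levels. Their mean log2 CPM ranged from 0.77 to 5.67 with a median of 2.14, and 105 of them (95.5%, with Wilson 95% bounds of 89.8% and 98.0% that take genes as independent) lay below the median of the table, 4.58. The lowest 25% of the table held 81 of them (73.6%) and the highest 25% held 0. In such bulk samples, fewer cells that express a gene and less of its RNA per cell cannot be told apart. As a CPM value grows with the length of a gene, levels were compared between genes after subtracting log2 of the deposited length in kilobases. On this scale of log2 CPM per kb, the median was 0.048 for LINC genes, -0.037 for 225 antisense and divergent RNA genes, 2.57 for 38 SNHG host genes and other named long noncoding RNAs, and 2.52 for 11602 protein-coding genes. The median of protein-coding genes was thus 2.47 above that of LINC genes on the log2 scale, which corresponds to 5.54-fold, while the antisense and divergent genes differed from the LINC genes by -0.084. No test was made of these differences, since each gene has a single value and genes are not replicates. The antisense and divergent class was taken by the symbol suffixes AS, DT, OT and IT. It may therefore also hold overlapping (OT) and intronic (IT) transcripts. Together the 110 genes accounted for 0.0782% of the summed CPM of the table, and the 10 with the highest levels made up 35.8% of that share. The plot of cumulative levels shows the LINC and the antisense and divergent genes together at the low end of the table.

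**Figure D1:**
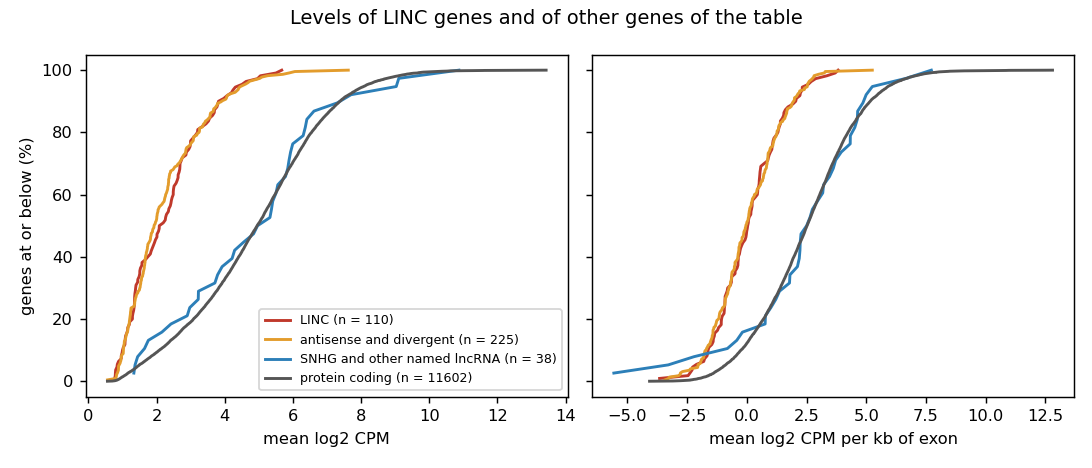
Cumulative share of genes (%) against mean log2 CPM (left) and mean log2 CPM per kb (right) for LINC genes, antisense and divergent RNA genes, SNHG and other named long noncoding RNA genes and protein-coding genes. The curves of the LINC genes and of the antisense and divergent genes run together, with medians of 0.048 and -0.037 per kb, and both lie to the left of the protein-coding curve, with a median of 2.52.

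Known long noncoding RNAs of the same table give a scale for these values. MALAT1 and NEAT1, which are retained in the nucleus, had 7.73 and 4.52 log2 CPM per kb, and NORAD, a cytoplasmic RNA that binds Pumilio proteins, had 6.67. CYTOR, which was formerly LINC00152, had 1.79. With the deposited lengths, none of the 110 LINC genes reached NEAT1, and the highest on this scale was LINC00973 at 3.83.

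In mean log2 CPM, LINC00472 was followed by LINC00205 at 5.50, LINC02693 at 5.04 and LINC01278 at 4.96. LINC01578 (CHASERR) had 4.62, LINC00342 had 4.51 and LINC01605 had 4.31. The first 10 were completed by LINC01224 at 4.24, LINC01128 at 4.19 and LINC01184 at 4.07. These 10 were long, with a median length of 11372.5 bases against 4706.5 for all members. On the scale per kb their order was different, and only 3 of them were also among the first 10 there. LINC01605 (chromosome 8, 37421341 to 37554183), at 1522 bases, had 3.70 log2 CPM per kb and was in second place. LINC00205 had 2.57 and LINC01224 had 2.25, whereas LINC00472 had 1.36, LINC01128 had 0.22 and LINC01184 had 0.018.

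The member with the highest level per kb, LINC00973 (chromosome 3, 98981058 to 98983096), is 962 bases long and had a mean log2 CPM of 3.77. It was followed by LINC01605, LINC02637 at 3.35, LINC01116 at 2.88 and LINC00674 at 2.70 log2 CPM per kb. LINC01116 lies on chromosome 2 at 176629572 to 176637931. LINC02637 is only 551 bases long, and 37.3% of the 75-base windows of its exons occur once in the genome, so that its value rests on few positions where a read can be placed uniquely. The order per kb depended on the length used. With the exon bases of release 44 in place of the deposited lengths, LINC00674 (160 bases instead of 734) had 4.90 log2 CPM per kb and was first. LINC00431 (159 instead of 1189) had 3.49 instead of 0.58. Reads were not counted again on release 44, so here the counts of a longer model were divided by a shorter length. Both values are therefore not levels of these RNAs under release 44. LINC01605 (2406 instead of 1522) had 3.04 and was in place 5, and LINC01116 (4636 instead of 2126) had 1.76 and was in place 14. LINC00973 and LINC02637 had the same length in both. The lowest mean log2 CPM among the members were those of LINC00663 (0.77), LINC01703 (0.79), LINC00664 (0.79), LINC01776 (0.80) and LINC00431 (0.83). They lay just above the lowest value of the whole table, 0.56. In all, 99 of the 110 members had a mean log2 CPM of at least 1, 60 had at least 2, 25 had at least 3, 10 had at least 4 and 3 had at least 5.

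**Figure D2:**
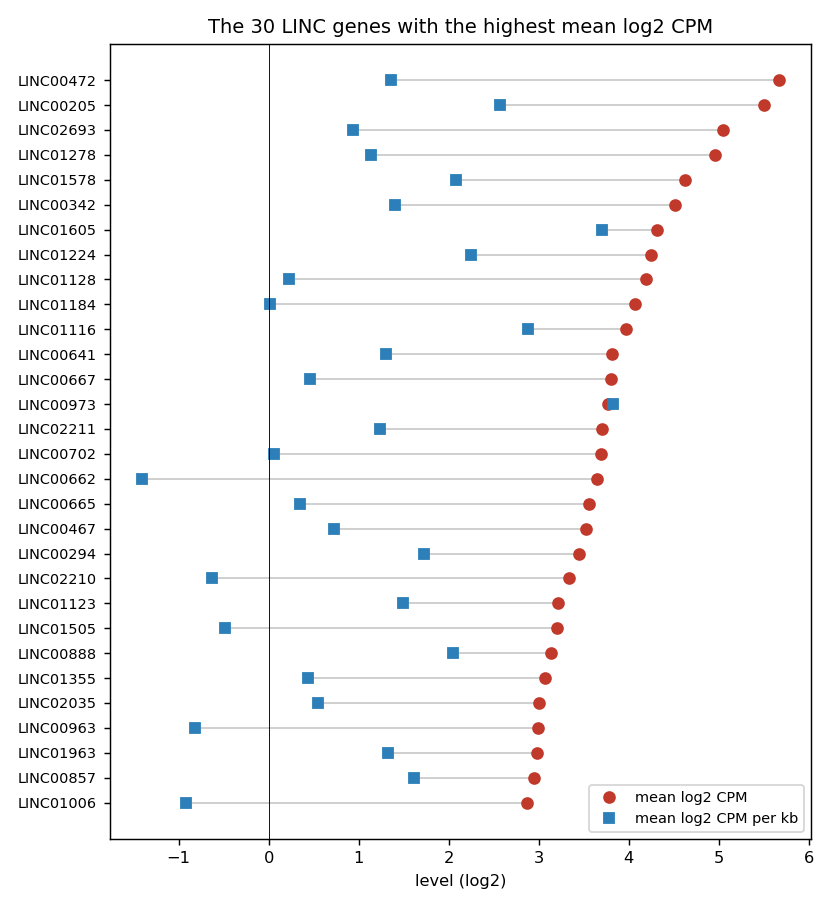
Mean log2 CPM (circles) and mean log2 CPM per kb (squares) of the 30 LINC genes with the highest mean log2 CPM, 1 gene per row. LINC00472 leads in mean log2 CPM with 5.67, whereas LINC00973 and LINC01605 lead per kb with 3.83 and 3.70.

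Several LINC RNAs have been described in cancer or signalling, and a list of 28 of them was examined. Of these, 15 were in the table, with a median mean log2 CPM of 2.69 and a range from 1.07 for LINC00869 to 5.67 for LINC00472. LINC00472 has been described as a suppressor of breast tumour growth, and LINC00511 as an RNA that promotes it. LINC00511 (chromosome 17, 72290091 to 72640472) had a mean log2 CPM of 2.69 and, with a length of 27654 bases, -2.10 per kb. LINC00467 had 3.52 and LINC00665 had 3.55, and on the scale per kb these were 0.73 and 0.35. Both have been reported to encode short peptides. The others with a mean log2 CPM above the median of the list were LINC01116 (3.97), LINC00662 (3.64), LINC00963 (2.99) and LINC01963 (2.98). Below it were LINC00174 (2.63), LINC00842 (2.60), LINC01003 (2.36), LINC01234 (2.01), LINC00847 (1.96) and LINC01138 (1.15). The other 13, among them LINC00460, LINC00473 and LINC01614, were not among the rows of the table.

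The deposited lengths of the members ranged from 513 bases for LINC01786 to 33198 bases for LINC00662, with a median of 4706.5, compared with 5341 for protein-coding genes. The next shortest were LINC02637 (551 bases) and LINC00106 (592), and the next longest were LINC00632 (28876) and LINC00511 (27654). For 74 of the 110 members the deposited length equalled the summed exon length in release 44. The canonical transcript had a median of 4 exons, against 9 for protein-coding genes, and 11 members had a single exon. The mean log2 CPM increased with log2 length across the members (Pearson r = 0.32, Spearman rho = 0.30, n = 110 genes of the same libraries), while the level per kb, which contains the length, decreased with it (r = -0.63, rho = -0.59). Among protein-coding genes the first relation had r = 0.11 and rho = 0.12 (n = 11602). LINC00632, which is long and had a mean log2 CPM of 1.20, had the lowest level per kb (-3.65). The plot of length and level shows how widely levels spread among members of similar length.

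**Figure D3:**
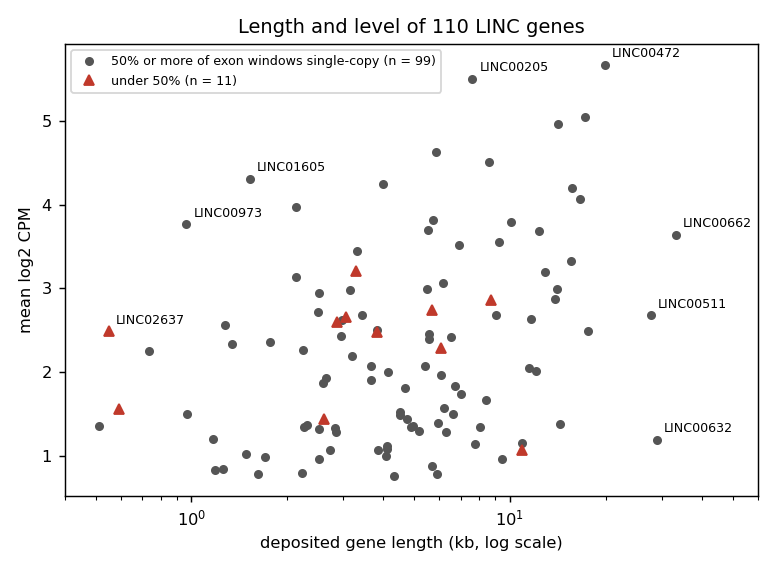
Mean log2 CPM against deposited gene length (kb, log scale) for the 110 LINC genes, with 11 genes that have under 50% single-copy exon windows as triangles. Genes over 10 kb range from LINC00472 at 5.67 to LINC00869 at 1.07, and the triangles lie between 1.07 and 3.21.

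How well reads can be assigned to a member depends on copies of its sequence. Of the 75-base windows of its exons, the length of a read, a median of 99.6% per member occurred once in the genome, and for 60 members it was 99% or more. For 11 members it was below 50%. LINC01123 and LINC01106, which lie within 378998 bases of each other on chromosome 2, had 6.54% and 7.57%. They are near copies, as 78.2% of the windows of LINC01123 were also found in LINC01106 and 88.0% in the reverse comparison. Their mean log2 CPM of 3.21 and 2.66 therefore cannot be told apart with confidence. LINC01002 (8.78%), LINC01145 (14.8%), LINC01001 (15.8%), LINC00869 (23.9%) and LINC00623 (38.6%) also share windows with other members. None of the windows of LINC00106 was unique, and this gene lies at the end of X, in a region that X and Y share. The 11 members had a median mean log2 CPM of 2.49, against 2.05 for the other 99, and the part of read assignment in this was not tested.

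Although the name implies a place between genes, the span of 22 members overlapped that of an annotated protein-coding gene, with 8 on the same and 15 on the opposite strand, including 1 on both. Of these 22, 16 had exons that overlapped protein-coding exons. LINC00472 lies outside the 22 by its deposited span, but 3.72% of the exon bases of its model in release 44 overlapped protein-coding exons on the opposite strand. The largest overlap was that of LINC01089, with 41.7% of its exon bases shared on the same strand, where its span overlaps RHOF. On the opposite strand the largest was LINC00960 with 10.1%, where its span overlaps ZNF717. The libraries were stranded, but the sources used here do not state whether strand was used in counting. Reads of pairs on opposite strands may therefore not have been separated. Reads from exon bases shared on the same strand, as in LINC01089, cannot be separated by strand, so its level is uncertain. LINC00294, which had a mean log2 CPM of 3.45, shares 7.96% of its exon bases on the opposite strand, where its span overlaps CSTF3, a gene of the cleavage stimulation factor that acts in 3' end processing of mRNAs.

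The nearest protein-coding neighbour of each member was found among the genes of the table by the distance between their start positions, which are the lower coordinates on either strand. This distance had a median of 85750.5 bases. It was at most 10 kb for 10 members, 50 kb for 36 (32.7%), 100 kb for 61 (55.5%) and 500 kb for 99. The closest pairs were LINC00294 with CSTF3 (1039 bases), LINC01534 with the zinc finger gene ZNF567 (4976), LINC01786 with the sodium channel subunit gene SCNN1D (5213), LINC00960 with ZNF717 (6360) and LINC00106 with ASMTL (6712). The farthest were LINC02228 and LINC02211, which overlap each other on opposite strands of chromosome 5 and lay 6313047 and 6212697 bases from DROSHA, the gene of the nuclear miRNA processing enzyme. They were followed by LINC01410 on chromosome 9, which lay 2867344 bases from CBWD5. For LINC02228 and LINC02211 the nearest annotated protein-coding transcription start was that of CDH10, at 545978 and 542822 bases. CDH10 was not among the genes of the table. Of the 10 members with the highest mean log2 CPM, LINC00472 lay beside OGFRL1 (54616 bases) and LINC00205 beside the fucosyltransferase gene POFUT2 (24122). LINC02693 lay beside the MAP kinase kinase gene MAP2K3 (143591) and LINC01578 beside CHD2 (80649). The gap between the deposited spans of LINC01578 and CHD2 was only 488 bases. By its coordinates in release 44, CHD2 overlaps the span of LINC01578 on the same strand. There, 1.87% of the exon bases of LINC01578 lie in protein-coding exons of that strand. The span of LINC01278 overlapped that of its neighbour SPIN4 on the same strand, with the start positions 124235 bases apart. LINC00342 lay beside ANKRD36C (29867 bases), LINC01605 beside ZNF703 (274441), LINC01224 beside ZNF91 (94242), LINC01128 beside SAMD11 (98790) and LINC01184 beside SLC12A2 (144614). By start position the neighbour of LINC00511 was SOX9 (169071 bases), which encodes a transcription factor. By the gap between gene bodies it was SLC39A11 (5477 bases). A zinc finger gene named ZNF, ZFP, ZBTB, ZSCAN or ZKSCAN was the neighbour of 15 members (13.6%), and such genes were 4.18% of the protein-coding genes of the table. On chromosome 19, where 24.7% of 841 protein-coding genes of the table have such a name, it was the neighbour of 5 of 9 members. LINC01443 and LINC01444 share the neighbour ZNF519, so the 15 members had 14 different zinc finger neighbours. This group of neighbours was chosen after the values were seen and was not tested.

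The neighbours found among the genes of the table were more highly expressed than the LINC genes. Genes outside it could not be neighbours here. The nearest annotated protein-coding start belonged to a gene of the table for 78 members (70.9%). For 60 members (54.5%) the neighbour used was the gene with that nearest start. In 92 of the 110 pairs (83.6%) the protein-coding gene had the higher log2 CPM per kb, with a median difference of 2.35. The medians of all protein-coding genes and of the LINC genes differed by 2.47, so such a difference is not particular to neighbours. LINC00472 had 1.36 log2 CPM per kb, and it was among the 92. The level of the LINC gene had almost no relation to that of its neighbour (Pearson r = 0.053, Spearman rho = 0.036, n = 110 pairs from the same libraries, in mean log2 CPM), and for protein-coding genes and their own nearest protein-coding neighbour the values were 0.10 and 0.096 (n = 11602).

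Pairs with a common promoter region were sought by the distance between transcription starts, taking strand into account and using all protein-coding genes of release 44. The start of 9 members lay within 1000 bases of a protein-coding start. The exception in orientation was LINC02210, which begins 16 bases from a readthrough gene that overlaps it on the same strand. The other 8 were transcribed from the opposite strand. In log2 CPM per kb, LINC00205 had 2.57 and began 152 bases from POFUT2, which had 3.65. LINC01184 (0.018) began 594 bases from the cotransporter gene SLC12A2 (2.52). LINC00894 (-0.49), or EOLA2-DT, began 87 bases from EOLA2 (3.23). LINC01089 (-0.038) began 103 bases from SETD1B (2.02), which encodes a histone H3 lysine 4 methyltransferase. LINC01534 (-0.92) began 163 bases from ZNF567 (0.15), and LINC01560 (0.52) began 349 bases from ZNF41 (1.99). LINC01134 (-1.03) began 59 bases from C1orf174 (1.97), and LINC01006 (-0.92), or RNF32-DT, began 373 bases from RNF32 (0.14). In all 8 pairs the protein-coding gene had the higher level per kb, by 1.06 to 3.72 on the log2 scale. The medians of all protein-coding genes and of the LINC genes differed by 2.47. Without the correction for length, LINC01006 was above RNF32, with a mean log2 CPM of 2.87 against 2.27. In mean log2 CPM, member and partner had Pearson r = 0.61 and Spearman rho = 0.52 across the 8 pairs. With so few pairs these values are imprecise, and they were not tested.

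**Figure D4:**
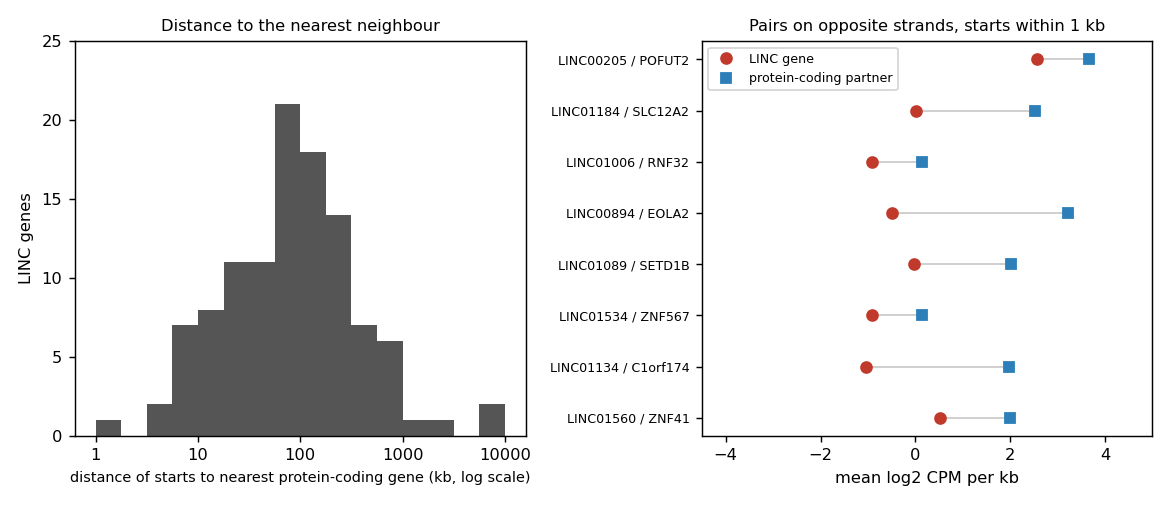
Left, number of LINC genes by distance between the starts of the gene and of its nearest protein-coding neighbour in the table (kb, log scale). Right, mean log2 CPM per kb of the 8 LINC genes (circles) and of the protein-coding genes (squares) that start within 1 kb on the opposite strand, where each protein-coding gene is above its LINC gene, by 1.06 to 3.72.

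Promoter sequences, from 250 bases before to 50 bases after the start in RefSeq (GRCh38.p14), were matched by symbol or synonym to 87 of the 110 members. For some members the RefSeq start was far from the deposited one, by 622748 bases for LINC01505 and 63303 for LINC01578. The values below therefore describe RefSeq starts, which can differ from those used for distances to neighbours. A promoter was taken as rich in CpG, the dinucleotide at which DNA is methylated, at a GC content of at least 50% and a ratio of observed to expected CpG of at least 0.6. This was met by 42 of the 87 (48.3%), compared with 13.2% of 1504 promoters of other LINC genes, 82.4% of 9435 protein-coding genes of the table and 46.9% of all 27305 promoters. Of the 9 members that start within 1000 bases of a protein-coding start, 8 had a CpG-rich promoter. Among these 87 members, all of them genes of the table, the CpG content did not follow the level. The other LINC genes have no level here and do not enter this comparison. The 42 with a CpG-rich promoter had a median mean log2 CPM of 2.26, and the other 45 had 2.34 (Pearson r between mean log2 CPM and the number of CpG = 0.015, Spearman rho = -0.035, n = 87). Promoters of 3 of the 4 members with the highest mean log2 CPM are shown 5′ to 3′ on the strand of the gene, with each CpG in capitals, because they differ in this property. LINC00472 (chr6:71420696-71420995, minus strand) has 31 CpG, LINC00205 (chr21:45287802-45288101, plus strand), beside POFUT2, has 34, and LINC01278 (chrX:63561046-63561345, minus strand) has 7.
LINC00472: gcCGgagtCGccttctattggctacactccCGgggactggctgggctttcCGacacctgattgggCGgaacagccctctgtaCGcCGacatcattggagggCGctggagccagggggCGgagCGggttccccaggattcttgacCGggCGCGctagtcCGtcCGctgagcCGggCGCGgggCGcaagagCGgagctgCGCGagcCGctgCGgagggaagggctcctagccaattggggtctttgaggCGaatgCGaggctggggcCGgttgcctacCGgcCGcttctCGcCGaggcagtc
LINC00205: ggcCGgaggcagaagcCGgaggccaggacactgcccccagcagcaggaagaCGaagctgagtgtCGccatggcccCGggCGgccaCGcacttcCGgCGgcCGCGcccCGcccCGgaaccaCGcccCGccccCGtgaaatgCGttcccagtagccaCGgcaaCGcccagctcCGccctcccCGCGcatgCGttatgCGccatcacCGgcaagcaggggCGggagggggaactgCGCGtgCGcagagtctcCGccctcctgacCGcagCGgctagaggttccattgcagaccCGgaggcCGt
LINC01278: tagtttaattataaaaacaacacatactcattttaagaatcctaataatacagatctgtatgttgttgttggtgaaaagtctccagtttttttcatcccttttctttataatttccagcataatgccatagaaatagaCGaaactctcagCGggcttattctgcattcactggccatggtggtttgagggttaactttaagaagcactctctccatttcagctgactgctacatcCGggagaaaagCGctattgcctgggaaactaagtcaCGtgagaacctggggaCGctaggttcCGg
On either strand, TATAAA was found in 13 of the 87 promoters (14.9%) and in 12.0% of all promoters, CCAAT in 39 (44.8%) and 35.7%, the GC box GGGCGG in 36 (41.4%) and 44.6%, and the ETS motif CCGGAAG in 11 (12.6%) and 10.7%. Each motif was counted whether or not it overlapped another. Protein-coding genes of the table had these letters in 5.13%, 36.9%, 71.6% and 20.3% of promoters. A match of letters is not a binding site.

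As cordycepin acts on polyadenylation, the ends of the transcripts were searched for the signal that directs cleavage and polyadenylation. The hexamer AATAAA was present on the transcript strand in the last 40 bases of the canonical transcript for 45 of 110 LINC genes (40.9%), and 7 others (6.36%) had the variant ATTAAA. Among antisense and divergent genes these shares were 37.1% and 7.59% (224 transcripts), and among protein-coding genes they were 65.7% and 15.2% (11602 transcripts). Neither was found for 58 LINC genes (52.7%), compared with 19.1% of protein-coding genes. The annotated ends of long noncoding RNAs are often incomplete, so this is a statement about the annotation. The last 30 bases of 4 members that have the signal and are among those with the highest mean log2 CPM are given to show its place, with the hexamer in capitals.
LINC01578: tggggatttagAATAAAtgaattgcaccct
LINC01128: ccagtgAATAAAaatttttccaaacagtaa
LINC01116: gtctcAATAAAgatgttttaaaaccataaa
LINC00641: ttcaacttcaAATAAAtgaaataatatgca
The hexamer began 19, 24, 25 and 20 bases from the end. Members with AATAAA had a median mean log2 CPM of 2.43 and 0.24 per kb, those with ATTAAA had 1.35 and -0.94, and those with neither had 1.99 and -0.28. The bar plots of promoters and transcript ends show both features beside the other classes of genes.

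**Figure D5:**
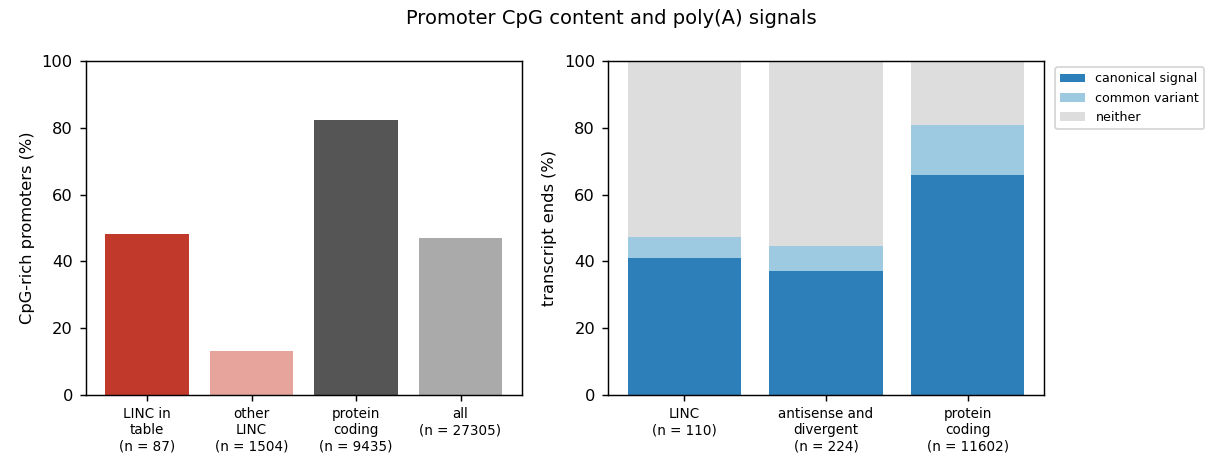
Left, share of CpG-rich promoters (%) among LINC genes of the table, other LINC genes, protein-coding genes of the table and all RefSeq promoters. Right, share of canonical transcripts (%) that end with the canonical poly(A) signal, its common variant or neither. LINC genes of the table are at 48.3% in the left plot, above the 13.2% of other LINC genes, and at 52.7% with neither signal in the right plot.

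Most annotated LINC genes were not among the rows of the table. Of 2261 genes with a LINC number that release 44 classes as long noncoding RNA, 109 (4.82%) were in it, compared with 57.9% of 20046 protein-coding genes. These 109 are counted by the current symbol and so differ in part from the 110 members. Their median exon length was 4676 bases and their median distance to a protein-coding transcription start was 54340 bases. For the 2152 others these were 1907.5 and 97587.5 bases. Starts more than 100 kb from any protein-coding start made up 33.9% of the former and 49.3% of the latter. The level of a member increased with its length, as given above, and the part of level in the difference in length was not tested.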

How the data were processed

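Libraries from 2 cordycepin and 2 DMSO samples of MDA-MB-231 Fluc cells were used. Per the study's methods, the authors used GRCh38.p13 for mapping and rsubread for counting of the 75 bp read pairs. The submitters' processing notes list TopHat, HTSeq, DESeq and Cufflinks and the build hg38, without roles. The authors' deposited table gives 1 mean level per gene as log2 CPM, a length, coordinates and the authors' own comparison of the groups (fold change, F statistic, p-value and adjusted p-value). That comparison was not used. Normalization and the filter on low counts are not given in the sources used here. The table holds 0 columns of values per library, so depth, SD and tests between groups could not be given, and duplicates could not be compared.

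Log2 CPM per kb is log2 CPM less log2 of the deposited length in kb. Gene types, exons and canonical transcripts were taken from GENCODE release 44 (GRCh38). Of the gene IDs of the table, 13922 (99.7%) were found there. Uniqueness of sequence was examined with 75-base windows of exons counted on both strands of hg38. miRNA and promoter sequences were from RefSeq (GRCh38.p14). The neighbour search was tested on simulated data, where 200 of 200 planted neighbours were found. Named genes were the 10 with the highest and 5 with the lowest log2 CPM, the 5 highest per kb, the 3 longest and 3 shortest, the 5 nearest to and 3 farthest from a neighbour, and a list of described LINC RNAs. Members and lists were chosen with earlier results of these data known, and any other gene was named after its values were seen. Alternatives are given in the closing section. The computations used numba 0.67.0, scipy 1.17.1, pandas 2.3.3 and numpy 2.4.6 in Python 3.11.15, and plots were drawn with matplotlib 3.10.9.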

Additional observations from a re-analysis of the deposited data

How the results depend on the processing

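No paired analysis was possible because levels per library are not in the table, and for the same reason no replicate could be left out. A value was taken as moved when it left the binomial 95% interval of the original median or share, moved by more than 0.1 for a correlation or by over 1.5 times for a number of members. Of 25 alternatives, 17 did not move and 8 did. Limiting the genes to those above the lowest 25% of levels (29 members) gave a median mean log2 CPM of 3.70, a median of 1.23 per kb and a median length of 6942 bases, since low members were left out. The median on the scale per kb was 0.048 instead of 2.14, which is another scale. The share of members with a neighbour within 50 kb, 32.7%, was 60% by the gap between gene bodies, 43.6% with all annotated protein-coding genes, 9.09% at a limit of 10 kb and 55.5% at 100 kb. The share of members below the median was 93.1% to 96.4% over its 3 alternatives, but each used another median as the reference. It was 93.1% for the 29 members above the lowest 25% of levels, with a median taken from the genes above that limit. On the scale per kb it was 94.5%, and against the median of protein-coding genes it was 96.4%. Leaving out members with under 50% single-copy windows, or those whose exons overlap protein-coding exons, both chosen after seeing the data, gave medians of 2.05 and 2.05 in mean log2 CPM. The depth is unknown, so the precision of the levels could not be given.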
